A study of Mus musculus with 12 samples.

Results

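Transcripts of 9 genes were followed in mouse splenic CD4 T cells: the transcription factors Stat3, Stat4, Stat5a, Stat5b and Stat6, and the feedback inhibitors Socs1, Socs2, Socs3 and Cish. The genes were chosen by symbol, as members of the STAT and SOCS families that act in helper T cells. Earlier results of these data were known at the time of that choice. All 9 had an entry of their own in each of the 12 libraries, out of 23247 measured features. All 9 also passed the filter on low values, which left 11118 features for testing.

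The study sequenced stranded mRNA libraries of sorted spleen cells from C57BL/6 mice. T follicular helper (TFH) cells were CD4+CXCR5+PD-1+ and the comparison cells, called non-TFH, were CD4+CXCR5-PD-1-. Control mice, called WT here, had the genotype Ets1 flox/flox with no Cre named, and the mice called KO had the genotype CD4-cre Ets1 flox/flox, so that all animals carried floxed alleles. Each genotype gave a TFH and a non-TFH group, 4 groups of 3 libraries in all, and the comparison of KO with WT asks how the TFH profile depends on Ets1. CD4-cre acts in developing thymocytes before the CD4 and CD8 lineages separate, so it is not restricted to TFH cells. The sources used here give no age or immunization and do not say whether animals were pooled. Nothing in the labels ties replicates to separate mice, so a p-value reflects the spread of these libraries alone, and that spread may be technical.

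Cytokines reach STAT proteins through receptors with bound JAK kinases. The kinases phosphorylate the receptor and then the STAT, which forms dimers, enters the nucleus and binds palindromic DNA motifs near target genes. Proteins of the SOCS family, among them CIS, the product of Cish, are transcribed in response to STATs and then block the receptor or the kinase, which makes their transcripts a commonly used sign of recent cytokine signalling. In helper T cells STAT3 carries signals of IL-6 and IL-21 and supports the follicular program, STAT4 those of IL-12 towards type 1 cells, STAT6 those of IL-4 towards type 2 cells, and STAT5 those of IL-2 and IL-7, which oppose the follicular program.

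The promoters of 3 feedback genes are shown because these genes were called in the comparisons below, and because the study targets an ETS family factor while SOCS genes are known STAT targets. RefSeq (GRCm38.p6) held a start site for 8 of the 9 genes, with 11 entries, and none for Socs2. The motifs searched on both strands were TTCNNNGAA, the usual STAT palindrome, and CCGGAA, whose GGAA is the core bound by ETS factors. Capitals mark the matches, and no match overlapped another in the sequences printed. For Socs1 and Socs3 the 250 bases before the start are given, at chr16:10785537-10785786 and chr11:117969367-117969616, both on the minus strand and written 5′ to 3′. For Cish a window of 30 bases around the start is given, at chr9:107296654-107296683 on the plus strand.
Socs1: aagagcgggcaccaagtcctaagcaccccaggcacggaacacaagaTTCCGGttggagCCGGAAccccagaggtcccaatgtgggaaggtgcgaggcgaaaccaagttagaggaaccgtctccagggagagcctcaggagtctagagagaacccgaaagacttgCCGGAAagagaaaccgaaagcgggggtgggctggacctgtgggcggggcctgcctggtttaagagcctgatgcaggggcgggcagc
Socs3: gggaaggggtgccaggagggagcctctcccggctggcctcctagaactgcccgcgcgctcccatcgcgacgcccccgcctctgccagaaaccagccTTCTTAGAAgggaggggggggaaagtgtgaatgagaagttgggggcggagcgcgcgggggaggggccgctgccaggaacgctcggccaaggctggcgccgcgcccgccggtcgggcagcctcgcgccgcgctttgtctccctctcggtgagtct
Cish: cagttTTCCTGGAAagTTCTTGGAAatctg

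The Socs1 window held 3 matches to CCGGAA, beginning 204, 192 and 86 bases before the start. Of 32851 RefSeq windows of the same length, 12% held at least 1 such match and 0.463% held 3 or more. The Socs3 window held 1 match to TTCNNNGAA, beginning 154 bases before the start, a motif found in 7.02% of the windows. Cish had no match in the 250 bases before its RefSeq start, but 2 matches to TTCNNNGAA directly after it. They began 30 and 19 bases before position 107296689, where the deposited tables begin the gene. Among windows that also include 50 bases after the start, 0.457% held at least 2 matches to TTCNNNGAA. The cutoffs of 3 and 2 matches equal the numbers found for Socs1 and Cish, so these shares are not a test of enrichment. Among the STAT genes, the 250 bases before a Stat5b start held 1 match to CCGGAA and those of Stat3, Stat4, Stat5a and Stat6 held neither motif. After its start Stat6 had a match to CCGGAA, at bases 7 to 12. Of the windows that include 50 bases after the start, 14.9% held at least 1 match to CCGGAA. A longer form of the STAT palindrome, with 1 more base in its spacer, was also searched: 5.85% of the windows of 250 bases held it and no window of a member did. A match describes letters in a window and is not evidence of binding.

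Levels are FPKM, fragments divided by transcript length and library depth, scaled between libraries, so that levels of different genes are compared per length. Depth was estimated at 11.9 to 15.6 M fragments per library, a rough value, since 22.2 to 29.9% of the loci used gave a fragment number within 0.05 of a whole one. A gene was called when limma gave an adjusted p (Benjamini-Hochberg over all 11118 features) under 0.05, and changes are on the scale of log2(FPKM + 1), which understates changes of low genes such as Socs2. Ets1, the targeted gene, stood at 412, 413 and 404 FPKM in WT non-TFH, 415, 410.3 and 381 in KO non-TFH, 171, 204 and 216 in WT TFH and 224, 272 and 266 in KO TFH libraries. Its KO change was -0.03 ± 0.099 log2 (SE) in non-TFH cells (adjusted p = 0.91) and 0.37 ± 0.099 in TFH cells (adjusted p = 0.015), where the KO libraries were higher. Whole-gene FPKM also counts exons outside a floxed segment, so this value does not check the deletion, and genotypes are given as labelled. Summed over the 9 of 10 TFH markers with a value in every library, they were 35.5 to 51.7 FPKM in the non-TFH and 896.9 to 1597.8 in the TFH libraries, in the direction of the sort. T cell markers were present in every library, although Thy1 averaged 299.6 FPKM in WT non-TFH, 29.1 in KO non-TFH, 32.7 in WT TFH and 1.6 in KO TFH cells.

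Markers of other cells were not equal between the groups. Sums are over the genes with a value in every library. For macrophages and monocytes these were 14 genes of 16 listed, summing to 18.6 to 30.7 FPKM in WT non-TFH, 39.1 to 56.3 in KO non-TFH, 1293.1 to 2392.9 in WT TFH and 263.1 to 344.2 in KO TFH libraries. Lyz2 had no value in 1 WT TFH library and is left out of these sums; it averaged 36.8 FPKM in WT non-TFH, 96.2 in KO non-TFH, 284.9 in WT TFH (2 libraries) and 611.2 in KO TFH cells. With Lyz2 15 genes were tested: between WT and KO TFH cells 13 fell and 2, Lyz2 and Itgam, rose. Itgam averaged 1.36 FPKM in WT TFH and 27.8 in KO TFH cells. None of the 15 genes was at 0 in all libraries of a group. Over all features 15% fell and 15.6% rose in KO TFH cells. Their defining receptor gene Csf1r averaged 153 FPKM in WT TFH and 19.4 in KO TFH cells. B cell markers (9 of 11 listed) summed to at most 3.18 FPKM in non-TFH cells, with Pax5 at 0 in all KO non-TFH libraries, to 67.6 to 75.1 in WT TFH and to 40.6 to 45.1 in KO TFH libraries. CD8 markers summed to 7.58 to 14.7 FPKM in WT libraries, 96.4 to 107 in KO non-TFH and 38.2 to 47.1 in KO TFH libraries, nearly all of it Cd8b1, with Cd8a at a mean of 0.259 FPKM in KO non-TFH and 3.23 in KO TFH cells. Neutrophil markers (7 of 8 listed) summed to 17.5, 17.7 and 140.9 FPKM in WT non-TFH libraries, the last being replicate 3, to 45.4 to 62.3 in KO non-TFH, to 1.1 to 19.2 in WT TFH, with Mpo at 0 in all of them, and to 4.47 to 13.5 in KO TFH libraries, with Elane at 0 in all of them. In each genotype 4 of the 7 neutrophil genes were called lower in the TFH group, and in KO mice 1 was called higher. Over all features 32.1% were lower and 35.3% higher in WT mice, and 33.6% lower and 33.4% higher in KO mice. Dendritic cell markers (8 genes) summed to 88.5 to 99.0 FPKM in WT non-TFH and 95.1 to 142.3 in KO non-TFH libraries. In WT TFH libraries the sum was 80.7 to 95.4 and in KO TFH libraries 48.1 to 65.7, most of it Bst2 in every group. Of 6 genes tested, 5 were higher and 1 lower in TFH cells of WT mice. Between WT and KO TFH cells 2 of the 6 fell and 0 rose, beside the shares of all features given above. NK cell markers (3 of 5 listed) summed to 2.81 to 3.65 FPKM in WT non-TFH, 15.1 to 20.7 in KO non-TFH, 4.0 to 6.96 in WT TFH and 3.46 to 6.63 in KO TFH libraries, and Tyrobp, which NK cells share with macrophages and which lacked a value in 2 libraries, averaged 9.99, 19.1, 268.8 and 64.5 FPKM in the same order. The KO non-TFH sum was mostly Eomes, which averaged 1.07 FPKM in WT non-TFH and 14.9 in KO non-TFH cells. Ncr1 averaged 0.648 and 1.52 FPKM in these 2 groups, while Klrk1 was lower in KO, at 1.6 and 0.875. These values move with the comparisons below, and their part in the results was not tested. In such bulk samples, fewer cells of a type and less RNA per cell cannot be told apart.

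The level of the members spanned from about 1 to over 100 FPKM. Stat6, at 84.6 ± 3.49 to 94.4 ± 7.54 FPKM (SD, n = 3 per group), was the most abundant of the 9 in every group but WT TFH, where Stat4 stood above it. Socs2 was the least abundant in all 4 groups. Among the inhibitors, Socs3 was highest in both non-TFH groups, Cish in WT TFH and Socs1 in KO TFH cells. The plot of member levels by library shows each of these values.

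**Figure D1:**
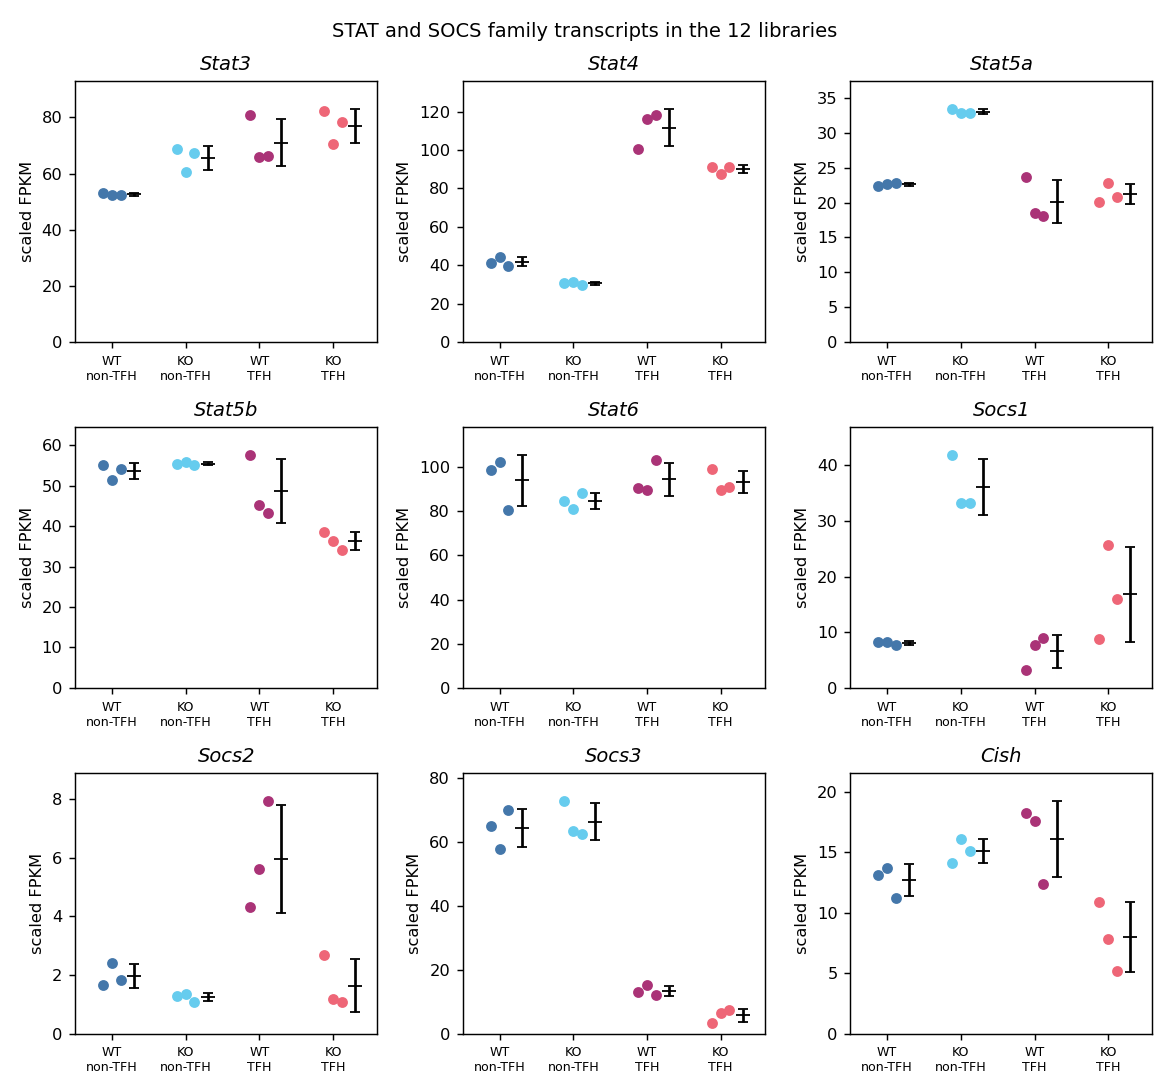
Scaled FPKM (y axis, from 0) of the 9 genes in the 12 libraries, grouped by genotype and cell type (x axis), with points for libraries and black bars for mean ± SD of 3 libraries. Stat4 and Socs3 separate TFH from non-TFH libraries in opposite directions, and Socs1 stands at 33.2 to 41.9 FPKM in KO non-TFH cells against 7.73 to 8.28 in WT non-TFH cells.

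In KO TFH cells 5 of the 9 genes fell against WT TFH cells, 1 rose and 3 did not pass. Socs2, Socs3, Cish, Stat5b and Stat4 fell and Socs1 rose, with a median log2 change of -0.3 over the 9 genes. Over all tested features 30.7% were called in this comparison, 15% lower and 15.6% higher, with a median of 0.04. In non-TFH cells Socs1 and Stat5a rose in KO, Stat4 fell and 6 genes did not pass, with a median of 0.05. There 20.3% of all features were called, 11.7% higher and 8.56% lower, with a median of 0.03.

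**Figure D2:**
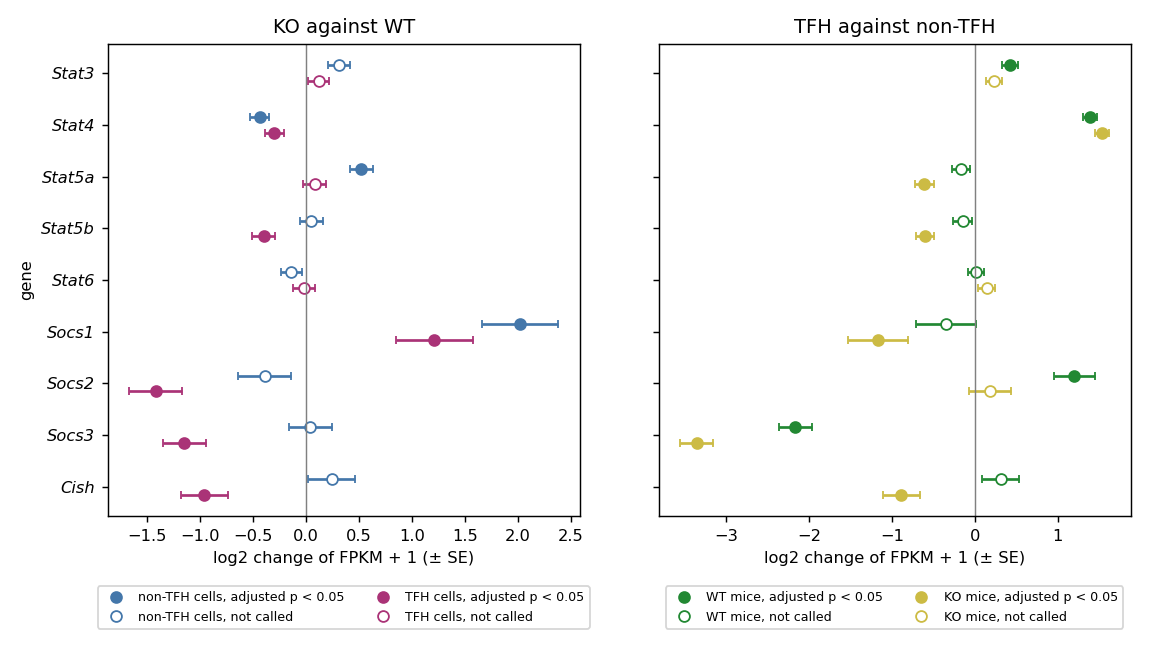
Log2 change of FPKM + 1 ± SE (x axis) for the 9 genes (y axis), KO against WT on the left and TFH against non-TFH on the right, with filled points for an adjusted p under 0.05 in limma. In the left panel the TFH points of Socs2, Socs3 and Cish are filled at -1.42, -1.15 and -0.96 and their non-TFH points are open, while Socs1 lies right of 0 in both cell types.

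Between the cell types, TFH cells of WT mice had more Stat4, Socs2 and Stat3 and less Socs3 than non-TFH cells, and 5 genes did not pass (median 0.01). Most features differed here: 67.4% were called, 35.3% higher and 32.1% lower, with a median of 0.05. In KO mice Stat4 was higher in TFH cells, and Socs3, Socs1, Cish, Stat5a and Stat5b were lower (median -0.6), where 67% of all features were called, 33.4% higher and 33.6% lower, with a median of 0.02. The KO change differed between the cell types for Socs3 and Cish. This test of the difference, the interaction, called 17.3% of all features, 6.81% higher and 10.5% lower in TFH cells, with a median of 0.01 against -0.45 over the members. The comparisons share groups of libraries, so they are not independent of each other.

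Stat3, the mediator of IL-6 and IL-21, stood at 53.2, 52.2 and 52.4 FPKM in WT non-TFH, 68.7, 60.5 and 67.4 in KO non-TFH, 80.7, 65.9 and 66.4 in WT TFH and 82.3, 70.6 and 78.3 in KO TFH libraries. WT non-TFH libraries were below all 9 others, and the 3 other groups overlapped from one to the next. Stat3 was higher in TFH than in non-TFH cells of WT mice, by 0.42 ± 0.1 log2 (SE, adjusted p = 0.003). Quantile normalization ended this call (0.2, adjusted p = 0.082). In KO mice that difference was 0.23 ± 0.1 (adjusted p = 0.063). The KO change was 0.31 ± 0.1 in non-TFH cells, with an adjusted p that rounds to 0.05 and lay just above the threshold. It passed in 12 of 22 alternatives. In TFH cells the KO change was 0.12 ± 0.1 (adjusted p = 0.41).

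Stat4, the IL-12 mediator that drives type 1 cells, had the largest rise in TFH cells among the 5 STAT genes. Its level was 41.2, 44.4 and 39.7 FPKM in WT non-TFH, 30.9, 31.1 and 29.8 in KO non-TFH, 100.4, 116 and 118 in WT TFH and 91.2, 87.4 and 91.3 in KO TFH libraries. The 4 groups did not overlap, in the descending order WT TFH, KO TFH, WT non-TFH and KO non-TFH. TFH cells were higher by 1.39 ± 0.087 log2 in WT (2.63-fold, adjusted p = 6.6e-08) and by 1.53 ± 0.087 in KO mice (2.88-fold, adjusted p = 3.1e-08). Stat4 fell in KO against WT in both cell types, with a log2 change of -0.44 ± 0.087 in non-TFH (adjusted p = 0.0036) and -0.3 ± 0.087 in TFH cells (adjusted p = 0.02). The difference of these changes was 0.13 (adjusted p = 0.53). The call in TFH cells was lost in 6 of 22 alternatives. These were array weights (-0.31, adjusted p = 0.078), no filter on low values (0.058), the 2 compared groups alone (0.092), and leaving out WT TFH replicate 2 (-0.28, 0.055), WT TFH replicate 3 (-0.26, 0.064) or KO TFH replicate 2 (-0.28, 0.059), while the call in non-TFH cells held in all 22 alternatives.

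Stat5a and Stat5b encode near-identical proteins that carry IL-2 and IL-7 signals, and lie next to each other and to Stat3 on chromosome 11 (Stat5b 100780731 to 100850585, Stat5a 100859351 to 100885169, Stat3 100886810 to 100939511, mm10). How the authors' counting split reads between the 2 copies is not stated in the labels, so both levels carry that uncertainty. Stat5a stood at 22.4, 22.7 and 22.8 FPKM in WT non-TFH, 33.4, 32.8 and 32.8 in KO non-TFH, 23.6, 18.5 and 18.1 in WT TFH and 20.1, 22.8 and 20.8 in KO TFH libraries. The KO non-TFH libraries were above all others, and the other 3 groups overlapped. The rise in KO non-TFH cells was 0.52 ± 0.11 log2 (1.44-fold, adjusted p = 0.0054), called in all 22 alternatives, and KO TFH cells lay below KO non-TFH cells (-0.61 ± 0.11, adjusted p = 0.00042).

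Stat5b stood at 55.0, 51.4 and 54.2 FPKM in WT non-TFH, 55.3, 55.8 and 55.0 in KO non-TFH, 57.6, 45.3 and 43.1 in WT TFH and 38.5, 36.4 and 34.0 in KO TFH libraries. The KO TFH libraries were below all others, and 1 WT TFH library was above all non-TFH libraries. Stat5b fell in KO TFH cells, with a log2 change of -0.4 ± 0.11 (1.32-fold lower, adjusted p = 0.015), a call lost without KO TFH replicate 3 (-0.35, adjusted p = 0.056), without the filter on low values (0.059) and with the 2 compared groups alone (0.1). Against KO non-TFH cells the change was -0.6 ± 0.11 (adjusted p = 0.00043). TFH minus non-TFH values in WT mice were -0.17 for Stat5a (adjusted p = 0.18) and -0.15 for Stat5b (adjusted p = 0.25). Without WT TFH replicate 1 both passed (-0.29 and -0.27, adjusted p = 0.018 and 0.019), and without scaling both signs turned. Quantile normalization gave -0.34 for Stat5b, which passed (adjusted p = 0.012).

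The ratio of Stat5b to Stat5a was lower in KO cells of both types. Within a library, Stat5b over Stat5a was 2.45, 2.27 and 2.38 in WT non-TFH and 2.44, 2.45 and 2.38 in WT TFH cells. It was 1.66, 1.70 and 1.68 in KO non-TFH and 1.92, 1.60 and 1.64 in KO TFH cells. All 6 WT libraries were above all 6 KO libraries, and the log2 ratio was lower in KO by -0.49 in non-TFH and -0.5 in TFH cells. The sum of both genes was 76.2 ± 1.82 FPKM in WT non-TFH and 88.4 ± 0.478 in KO non-TFH cells, and 68.7 ± 10.9 in WT TFH and 57.5 ± 2.45 in KO TFH cells (SD, n = 3 per group). In non-TFH cells the ratio thus moved with more Stat5a, and in TFH cells with less Stat5b. The ratio was chosen after its values were seen and was not tested.

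**Figure D3:**
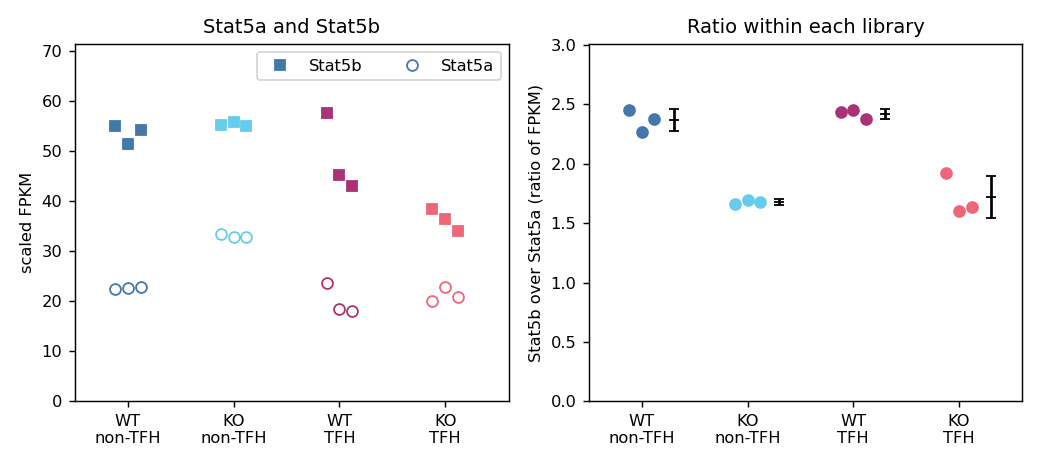
Left, scaled FPKM (y axis) of Stat5b (squares) and Stat5a (open circles) in each library by group (x axis). Right, the ratio of both within each library with mean ± SD of 3 libraries, which is 2.27 to 2.45 for WT libraries and 1.60 to 1.92 for KO libraries.

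Stat6, which carries IL-4 signals, was the member that varied least between groups. It stood at 98.8, 102.3 and 80.7 FPKM in WT non-TFH, 84.5, 81.2 and 88.2 in KO non-TFH, 90.5, 89.7 and 103 in WT TFH and 99.0, 89.6 and 91.1 in KO TFH libraries. KO TFH libraries lay above the KO non-TFH libraries, and the other neighbours in the order of levels overlapped. No comparison passed: the KO changes were -0.02 ± 0.1 in TFH (adjusted p = 0.93) and -0.14 ± 0.1 in non-TFH cells (adjusted p = 0.41), and the TFH differences 0.01 in WT and 0.14 in KO mice. The sign between cell types turned with the scaling, from 0.38 without it to -0.35 with quantile normalization in WT mice. The deposited confidence bounds of 1 KO non-TFH library ran from 0 to 458 around 77.2 FPKM before scaling, so that value is uncertain.

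Socs1, whose product binds and blocks JAK kinases and limits interferon signalling, was the one member that rose in KO cells of both types. It stood at 8.26, 8.28 and 7.73 FPKM in WT non-TFH and 41.9, 33.2 and 33.3 in KO non-TFH libraries. The 2 groups were far apart, with a rise of 2.02 ± 0.36 log2 (4.06-fold, adjusted p = 0.0019) that was called in all 22 alternatives. TFH libraries were more uneven: WT TFH held 3.19, 7.64 and 8.93 FPKM, KO TFH 8.77, 25.7 and 16.0, and the lowest KO library lay just under the highest WT library. The rise was 1.21 ± 0.36 (2.31-fold, adjusted p = 0.025). It did not pass without WT TFH replicate 1 (0.83, adjusted p = 0.08), KO TFH replicate 2 (0.86, 0.088) or KO TFH replicate 3 (1.19, 0.067), and the adjusted p ran from 0.0052 to 0.11 over the alternatives. The deposited bounds of WT TFH replicate 3 were 0 to 26.4 around 10.04 FPKM before scaling. The change was not shown to differ between cell types (-0.82 ± 0.51, adjusted p = 0.32). In KO mice TFH cells had less Socs1 than non-TFH cells (-1.17 ± 0.36, adjusted p = 0.013). That call was lost without KO TFH replicate 1 (-0.79, adjusted p = 0.057) and without the filter on low values (adjusted p = 0.06). In WT mice the difference was -0.35 (adjusted p = 0.4).

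Socs3, whose product binds gp130 and ends IL-6 signalling, was the member with the largest difference between cell types. WT non-TFH libraries held 65.1, 57.9 and 69.9 FPKM, KO non-TFH libraries 72.9, 63.3 and 62.6, and these groups overlapped. In WT mice the TFH libraries held 13, 15.3 and 12.2 FPKM and in KO mice 3.47, 6.41 and 7.38, without overlap. TFH cells were lower by 4.51-fold in WT (log2 -2.17 ± 0.2, adjusted p = 1.6e-06) and 10.3-fold in KO mice (-3.36 ± 0.2, adjusted p = 4.5e-08). The KO change was -1.15 ± 0.2 in TFH cells (2.21-fold lower, adjusted p = 0.0012) and 0.04 ± 0.2 in non-TFH cells (adjusted p = 0.93). These changes differed by -1.19 ± 0.28 (adjusted p = 0.013), a call lost without the filter on low values (adjusted p = 0.073). The summed macrophage markers were also lower in KO than in WT TFH libraries (263.1 to 344.2 against 1293.1 to 2392.9 FPKM) and were 18.6 to 56.3 FPKM in the non-TFH libraries. Lyz2, left out of the sums, was higher in KO than in WT TFH cells (mean 611.2 against 284.9 FPKM). The part of the macrophage markers in the Socs3 values was not tested.

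Cish, whose product CIS is a STAT5-induced inhibitor of IL-2 signalling, gave a similar pair of KO changes. It stood at 13.1, 13.7 and 11.2 FPKM in WT non-TFH, 14.1, 16.1 and 15.1 in KO non-TFH, 18.2, 17.6 and 12.4 in WT TFH and 10.9, 7.79 and 5.19 in KO TFH libraries. KO TFH libraries were below all the others, and WT TFH overlapped both non-TFH groups. The KO change was -0.96 ± 0.22 in TFH cells (1.94-fold lower, adjusted p = 0.0063, called in all 22 alternatives) and 0.24 ± 0.22 in non-TFH cells (adjusted p = 0.53). They differed by -1.2 ± 0.31 (adjusted p = 0.02), which did not pass without WT non-TFH replicate 3 (-1.12, adjusted p = 0.053) or without the filter on low values (adjusted p = 0.1). That replicate also had the highest neutrophil sum, 140.9 FPKM, and the part of those cells was not tested. TFH cells were 1.85-fold below non-TFH cells in KO mice (-0.89 ± 0.22, adjusted p = 0.0035), and the difference in WT mice was 0.31 (adjusted p = 0.23).

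Socs2, best known as an inhibitor of growth hormone signalling and also induced through STAT5, was low everywhere but highest in WT TFH cells. It stood at 1.67, 2.42 and 1.82 FPKM in WT non-TFH, 1.30, 1.37 and 1.09 in KO non-TFH, 4.31, 5.61 and 7.95 in WT TFH and 2.67, 1.17 and 1.07 in KO TFH libraries. The WT TFH libraries were above all 9 others, and KO TFH overlapped both non-TFH groups. Its log2 change in KO TFH cells was -1.42 ± 0.25 (2.67-fold lower, adjusted p = 0.0014), and WT TFH cells were above WT non-TFH cells by 1.2 ± 0.25 (2.3-fold, adjusted p = 0.0012). The KO change in non-TFH cells was -0.39 ± 0.25 (adjusted p = 0.34), and the difference of the changes, -1.02 ± 0.36, did not pass (adjusted p = 0.074). In WT TFH replicate 3 and KO TFH replicate 1 the deposited Socs2 entry reached over 20 kb beyond the gene on chromosome 10. With both left missing, an alternative added after seeing the data, the KO change was -1.48 and the difference passed (-1.09, adjusted p = 0.026). The difference passed in 4 of 21 alternatives, also with array weights (-1.09, adjusted p = 0.043), without WT TFH replicate 1 (-1.2, adjusted p = 0.041) or without KO TFH replicate 1 (-1.28, adjusted p = 0.017).

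The genes whose pattern over the 12 libraries was most like a member were found by the root-mean-square difference of centred log2 values, for the 4 members whose group means spanned at least 1 log2 unit. Closest to Stat4 were Tm2d2 (0.14), Ptpn7 (0.15) and Hsbp1 (0.17). Ptpn7 averaged 43.7 FPKM in WT non-TFH, 31.9 in KO non-TFH, 115 in WT TFH and 79.9 in KO TFH cells, the same order of groups as Stat4. Closest to Socs3 were Foxo1 (0.24), Fam102a (0.28) and Plcb2 (0.31), and Foxo1 averaged 79.9, 85.8, 14.8 and 7.63 FPKM in the same order of naming. Socs2 was most like Adgrl3 (0.22), Irf4 (0.22) and Dctn4 (0.23), of which Irf4 averaged 3.64, 2.53, 10.7 and 2.69 FPKM. Socs1 had less close neighbours, Panx1 (0.33), Hgsnat (0.36) and Spred1 (0.42). The 12 libraries share genotype and cell type, so these differences describe a pattern and no p is given.

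Stat2, which carries interferon signals, moved in opposite directions in the 2 cell types. It fell in KO TFH cells from 21.4 ± 1.77 to 13.8 ± 1.67 FPKM (log2 -0.6 ± 0.14, adjusted p = 0.0064; SD, n = 3 per group) and rose in KO non-TFH cells from 25.3 ± 3.31 to 35.3 ± 4.22 FPKM (0.46 ± 0.14, adjusted p = 0.034). These changes differed between the cell types (-1.06 ± 0.2, adjusted p = 0.003). None of the other 4 SOCS genes (Socs4, Socs5, Socs6 and Socs7) passed in either KO comparison. Between cell types, Socs7 was lower in TFH cells of both genotypes (-2.11 and -1.84 for WT and KO mice), as was Socs4 (-1.3 and -1.46), and Socs6 was higher in WT TFH cells (0.42).

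Of the 4 JAK kinases, 3 had a value of their own. Jak1, which serves most of the receptors listed here, fell in KO TFH cells from 218 ± 30.9 to 174 ± 10.9 FPKM (-0.31 ± 0.095, adjusted p = 0.027), and its changes differed between cell types (-0.55, adjusted p = 0.015). Jak2 rose in KO non-TFH cells from 35.5 ± 1.05 to 47.5 ± 3.59 FPKM (0.41 ± 0.11, adjusted p = 0.024). Among 11 phosphatases, PIAS proteins and other inhibitors, 1 rose and 3 fell in KO TFH cells and 1 fell in KO non-TFH cells, with a median of 0.02 in each. These are 4 and 1 of 11 called, beside 30.7% and 20.3% of all features. Cbl, a ubiquitin ligase that dampens receptor signals, fell in both, by 0.79 and 0.93 on the log2 scale. In TFH cells Ptpn11, the phosphatase SHP2, rose by 0.81 ± 0.22 and Pias2 fell by 1.55 ± 0.49 from an uneven 19.6 ± 16.8 FPKM in WT.

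Many cytokine receptors were called lower in KO TFH cells and higher in KO non-TFH cells. Of 18 tested receptors that signal through STATs, 9 fell and 2 rose in KO TFH cells (median -0.38), while 10 rose and 1 fell in KO non-TFH cells (median 0.69). Over all features 15% were lower and 15.6% higher in KO TFH cells (median 0.04), and 11.7% higher and 8.56% lower in KO non-TFH cells (median 0.03). The change itself differed between cell types for 10 of the 18 receptors, all with a lower change in TFH cells, against 17.3% of all features. Il2rb, the signalling chain of the IL-2 receptor, rose from 30.1 ± 1.22 to 91.3 ± 2.09 FPKM in KO non-TFH cells (1.57 ± 0.08, adjusted p = 1.4e-07) and its change differed in TFH cells by -2.48 (adjusted p = 1.3e-07), where it averaged 177 FPKM in WT and 93.2 in KO mice. Il2ra, the high-affinity chain and a STAT5 target, fell in KO TFH cells from 15.6 ± 5.59 to 2.92 ± 0.42 FPKM (-2.03 ± 0.24, adjusted p = 6.8e-05). Il7r fell in both, by 1.59 in TFH and 1.58 in non-TFH cells on the log2 scale. Il9r rose in both (0.63 and 1.43) and Il13ra1 rose in TFH cells (0.94). Il6ra, the IL-6 receptor chain upstream of Stat3 and Socs3, was lower in the TFH group of each genotype, by a log2 change of -3.55 in WT and -3.63 in KO mice.

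Of 11 tested cytokines that signal through STATs, 6 fell and 2 rose in KO TFH cells (median -0.53), and 5 rose and none fell in KO non-TFH cells (median 0.54), beside the shares of all features just given. Il4, the STAT6 cytokine, rose in KO TFH cells from 33.1 ± 16.7 to 396 ± 116 FPKM (3.64 ± 0.38, adjusted p = 4.5e-05), while Stat6 itself changed by -0.02. Il22 rose too (1.3). Ifng, the type 1 cytokine, fell by 2.14 on the log2 scale. Il2, the STAT5 cytokine, fell by 1.96 from a low 3.43 ± 2.01 FPKM. In KO non-TFH cells Il10 and Lif rose (2.45 and 1.62). The KO change differed between the cell types for 10 of the 11 cytokines, 9 with a lower change in TFH cells and 1, Il4, with a higher one, against 17.3% of all features.

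Known target genes of the STATs were counted from lists that share some genes with the lists above. In KO TFH cells 5 of 10 STAT3 targets fell and 1 rose, 3 of 6 STAT4 targets fell, 2 of 11 STAT5 targets fell and 1 rose, and 1 of 3 STAT6 targets rose, beside 15.6% of all features higher and 15% lower. In KO non-TFH cells 6 STAT3, 2 STAT4, 6 STAT5 and all 3 STAT6 targets rose, and 1 STAT5 target fell, beside 11.7% of all features higher and 8.56% lower. The STAT3 targets named by the rule were Bcl6, which rose in KO TFH cells (0.69 ± 0.12, adjusted p = 0.0014), and Fos and Junb, which fell (-2.21 and -1.87). Rora and Batf rose in KO non-TFH cells (2.02 and 1.19). Of the STAT4 targets Tbx21 fell in KO TFH cells (-0.78), and Il18r1 and Il18rap rose in KO non-TFH cells (1.62 and 1.48). Of the STAT5 targets Prdm1, which opposes Bcl6, fell in KO TFH cells (-1.53). The granzyme gene Gzmb rose in TFH cells (1.21) and in non-TFH cells from 0.429 to 50.1 FPKM (5.16 ± 0.36, adjusted p = 1.6e-06), and Bcl2l1 rose in non-TFH cells (1.76). Nfil3, a STAT6 target, rose in KO non-TFH cells (2.31 ± 0.26, adjusted p = 5e-05). The plot of called shares by gene list sets the lists side by side.

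**Figure D4:**
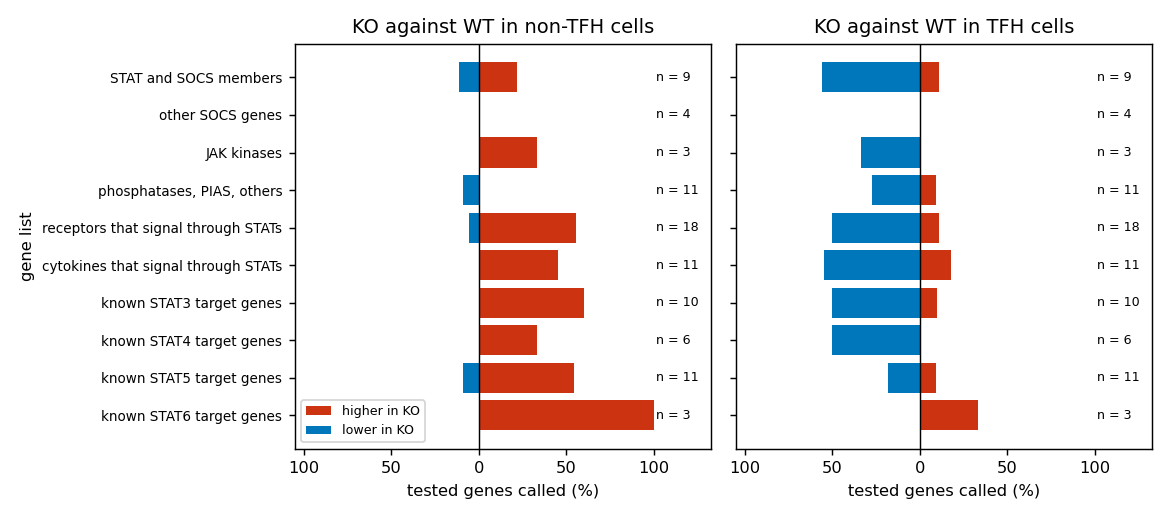
Share of the tested genes of each list (y axis) called in limma at an adjusted p under 0.05 (x axis, percent), to the right of 0 for genes higher and to the left for genes lower in KO, with n the number tested. In non-TFH cells the receptor, cytokine and target lists lie mostly to the right, with 10 of 18 receptors higher. In TFH cells most of them lie mostly to the left, with 9 of 18 receptors lower. The STAT6 targets lie to the right there (1 of 3 higher), and of 11 STAT5 targets 2 were lower and 1 higher. Over all features 11.7% were higher and 8.56% lower in non-TFH cells, and 15.6% higher and 15% lower in TFH cells.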

How the data were processed

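Stranded mRNA libraries of 4 groups were used, 3 libraries each. The submitters' processing notes name mm10 as the build, the aligners Bowtie, Bowtie2, TopHat and TopHat2, the quantifiers Cufflinks and Cuffdiff, and FastQC with cutadapt. Versions, order and settings: not given in the sources used here. The deposited values are FPKM per gene from the authors' Cufflinks tables, 1 per library, without counts. Depth (11.9 to 15.6 M fragments) was estimated from FPKM and its bounds at unnamed loci longer than 1500 bp, where 22.2 to 29.9% gave near-whole fragment numbers, and no interval was drawn from it. A symbol with an entry to itself in 2 or more libraries per group formed a feature (22451), and genes joined by Cufflinks formed 796 joint features. WT non-TFH replicate 1 alone lacked 831 features, none of them a member, and WT TFH libraries listed 12338 to 25171 unnamed loci against 6803 to 10233 in the others.

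FPKM were scaled by median ratios over 7162 features (factors 0.852 to 1.13). Those reaching 1 FPKM in 3 or more libraries were tested as log2(FPKM + 1) in limma 3.58.1 (R 4.3.3), with 1 mean per group over all 12 libraries, a variance trend, robust moderation and Benjamini-Hochberg adjustment (threshold 0.05). The fit was tested on simulated data. Python 3.11.15, pandas 2.3.3, numpy 2.4.6 and matplotlib 3.10.9 were used for tables and plots. Members, gene lists and tests were chosen with earlier results of these data known. Every member is named. Of each other list, the 2 largest rises and the 2 largest falls among called genes may be named per comparison. Alternatives covered pseudocount, scaling, filters, groups fitted, weights, moderation, a replicate block and leaving out each library.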

Additional observations from a re-analysis of the deposited data

Results flagged for a closer look

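The change of Socs3 between KO and WT mice differed between the cell types by -1.19 log2 (TFH minus non-TFH, SE 0.28, adjusted p = 0.013 in limma), with all 3 KO TFH libraries below all 3 WT TFH libraries and overlapping groups in non-TFH cells. The change of Cish differed by -1.2 (SE 0.31, adjusted p = 0.02), again with all 3 KO TFH libraries below the WT TFH libraries. All 3 KO non-TFH libraries lay above the WT non-TFH libraries, but the KO change of Cish there was not called. It was 0.24 log2 (SE 0.22, adjusted p = 0.53 in limma) and was called in 0 of 22 alternatives. Summed macrophage and monocyte markers were also lower in KO TFH and higher in KO non-TFH libraries (263.1 to 344.2 against 1293.1 to 2392.9 FPKM, and 39.1 to 56.3 against 18.6 to 30.7, over 14 genes). Of the 15 genes of that list tested, 13 fell and 2, Lyz2 and Itgam, rose in KO TFH cells. Over all features 15% fell and 15.6% rose. Lyz2, left out of the sums, averaged 284.9 FPKM in WT TFH (2 libraries) and 611.2 in KO TFH cells. The part of these markers in both differences was not tested. The neutrophil sum was 140.9 FPKM in WT non-TFH replicate 3 and 17.5 and 17.7 in the other WT non-TFH libraries, and without that replicate the Cish difference did not pass (-1.12, adjusted p = 0.053).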

How the results depend on the processing

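Over 23 settings, 950 of 1003 member values kept their side of the threshold (16 uncalled values changed sign), 32 passed where they had not, 20 no longer passed and 1 turned. The last was Stat6 TFH against non-TFH in WT mice, at 0.01 in the reported fit and -0.35 with quantile normalization. Of the 6 members called between KO and WT TFH cells, 3 were called without the filter on low values and 3 with the 2 compared groups alone. Over all features 10.2% and 19.4% were called in these 2 settings, against 30.7% in the reported fit. Leaving out 1 library gave 4 to 6 members, beside 25.7 to 29.4% of all features. Of the 2 called for the difference between cell types, 0 were called without the filter and 4 with array weights. Over all features 4.96% and 17.1% were called in these settings, against 17.3% in the reported fit. Leaving out 1 library gave 1 (without WT non-TFH replicate 3) to 4 (without WT TFH replicate 3), beside 13.4% and 16.9% of all features. The cause of these shifts was not tested. For the count of 0 without the filter, limma's adjusted p was 0.073 for Socs3 and 0.1 for Cish. Without scaling the median over all features moved to 0.37 for TFH against non-TFH in WT mice, 0.27 in KO mice and 0.09 between KO and WT non-TFH cells. No pairing by equal replicate numbers was seen (correlations of deviations -0.03 to 0.06). Such low values cannot exclude that libraries of equal number came from the same mouse. With a replicate block, 6 and 4 members were called in the KO comparisons of TFH and non-TFH cells, against 6 and 3 without it. For the TFH comparisons in WT and KO mice and the interaction, 4, 7 and 2 were called, against 4, 6 and 2. Over all features the block called 29.1, 18.9, 66.6, 66.4 and 15.5% in that order, against 30.7, 20.3, 67.4, 67 and 17.3%. The added member calls were Stat3 in each case. Leaving a member missing where it shares an entry gave no other value, because none did. Socs2, the least abundant member in every group, lay closest to the filter of 1 FPKM.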
